A study of Mus musculus with 12 samples.

Results

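Pou5f1, which encodes the transcription factor OCT4, and 9 further genes linked to pluripotency were followed across 4 groups of mouse cells. The 10 genes are Pou5f1, Dppa5a, Utf1, Dppa2, Dppa4, Fbxo15, Eras, Sall4, L1td1 and Pou3f1. They were taken by name from a table of 54446 genes. Poly(A) RNA was measured in 12 libraries, 3 from each group. Per the labels, cells of the E14 mouse embryonic stem cell line were differentiated and sorted by reporter expression into SOX17+ cells, SOX17+/T+ cells that carried both reporters, and T+ cells, and each group was compared with undifferentiated mESC. All 4 groups share the E14 background, and the culture described for it used irradiated mouse embryonic fibroblasts, serum and LIF. The differentiation agents, its length, the number of reporter clones and the way the reporters were built are not known from the labels. The labels number the replicates without saying that they came from separate cultures, so a p-value measures only the spread between these libraries, which may be technical.

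Pluripotent cells hold the capacity to form every tissue of the embryo proper, and OCT4 is the POU-domain factor on which that state depends. OCT4 acts with SOX2 and NANOG on many shared targets, and the genes followed here include transcription factors, chromatin proteins, RNA-binding proteins and a RAS-like signalling protein that are known as markers of embryonic stem cells. During gastrulation Pou5f1 is not lost at once: in the mouse embryo it stays on in epiblast cells that pass through the primitive streak, where the T-box factor T (Brachyury) is expressed, and is lost later as endoderm marked by SOX17 and mesoderm form.

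Values are TPM, transcript abundances that are corrected for gene length and have the same total in each library, so a level is a share of that library's transcripts. T averaged 2.32 ± 0.493 TPM in SOX17+ cells, 44.5 ± 15.3 in SOX17+/T+ cells, 127 ± 33.1 in T+ cells and 0.647 ± 0.0275 in mESC (SD, n = 3), and Sox17 averaged 230 ± 16.7, 139 ± 13.8, 10.3 ± 2.5 and 0.638 ± 0.157 TPM in the same order, so both reporter genes followed the labels of the sort. The 12 feeder fibroblast genes examined summed to between 54.6 and 87.8 TPM in the 9 sorted libraries, against 3576 to 4477 TPM in mESC. All 12 were called lower in each sorted group, where 49.5% to 50.3% of tested genes were. However, Col3a1, Lum, Dcn, S100a4, Postn and Tnc passed the filter on low values only through mESC, which fixed their direction. S100a4 was at 0 in every SOX17+ and SOX17+/T+ library. Mitochondrial transcripts took 5.71% to 6.93% of TPM in sorted libraries and 4.01% to 4.34% in mESC libraries, and 13953 to 14111 genes reached 1 TPM in sorted libraries, against 14999 to 15057 in mESC. These measures moved with every comparison against mESC below, and their part in it was not tested. When each library was rescaled without the 12 feeder genes and the mitochondrial genes, Sall4 in T+ cells was at 45.5% of its mESC level, beside 44.5% as deposited. Any other feeder RNA stayed in the totals, so this rescaling cannot show the part of feeder RNA. Correlations of log2 values between replicates lay between 0.995 and 0.997. In bulk samples such as these, fewer cells that express a gene and less RNA per cell cannot be told apart.

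Against mESC, the 10 genes were lower in each sorted group, but they left very different amounts behind. Sall4, a zinc-finger transcription factor of the spalt family, kept 71.1% of its mESC level in SOX17+ cells, 60% in SOX17+/T+ cells and 44.5% in T+ cells. Eras, a RAS-like GTPase of mouse embryonic stem cells, kept 10.7%, 16.4% and 1.12% in the same order, and Pou5f1 kept 0.416%, 1.83% and 6.73%. At the other end, Dppa2 was listed at 0 in 5 of the 9 sorted libraries. The median over the 10 genes was 0.843% in SOX17+ cells, 0.857% in SOX17+/T+ cells and 0.828% in T+ cells. The summed level of the 10 genes was 142 to 162 TPM in SOX17+ libraries, 147 to 159 in SOX17+/T+ libraries, 173 to 202 in T+ libraries and 5412 to 5549 in mESC libraries. Sall4 made up 81.4% of that sum in SOX17+ cells, 68.9% in SOX17+/T+ cells, 42.6% in T+ cells and 3.25% in mESC.

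**Figure D1:**
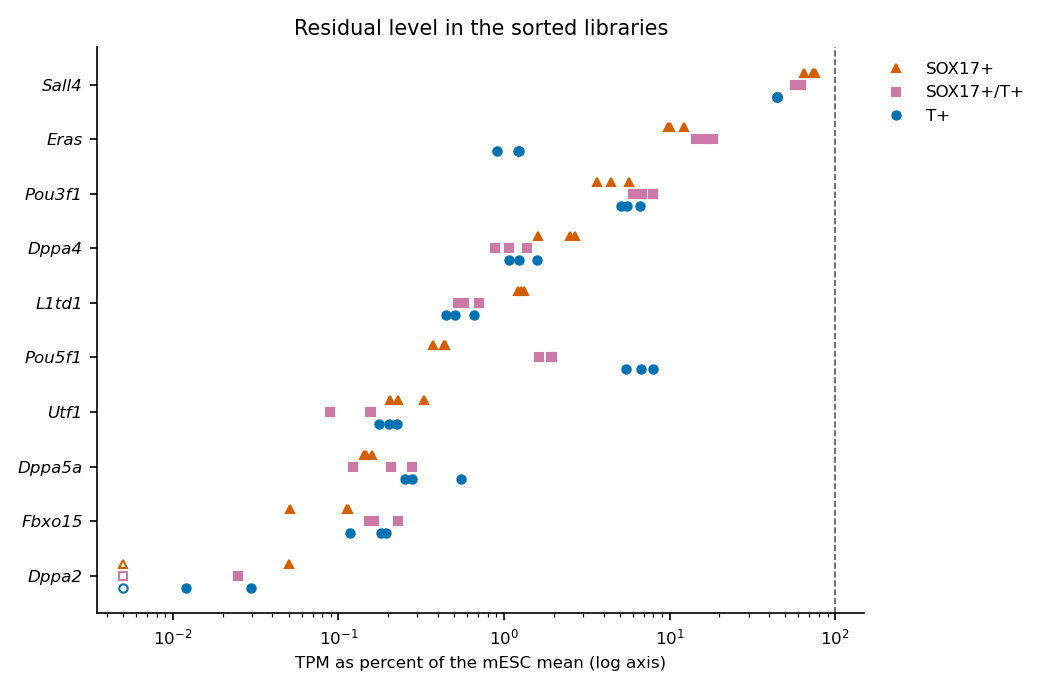
TPM of each of the 10 genes in each sorted library as a percent of its mESC mean, on a log axis, for SOX17+ (triangles), SOX17+/T+ (squares) and T+ (circles) libraries. Each filled point is 1 library, and the dashed line is the mESC mean. An open symbol at the left edge stands for all libraries of its group listed at 0 for that gene. Sall4 lies nearest to the line. Eras is lowest in T+ libraries (1.12%), and Pou5f1 is highest there (6.73%).

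Each difference is given on the log2(TPM + 1) scale, first-named group minus second, with its standard error and the limma p after Benjamini-Hochberg adjustment over 16097 genes, and calls were made below 0.05. The added 1 understates the change of genes near or under 1 TPM. All 10 genes were called lower in SOX17+ cells than in mESC, where 50% of tested genes were. The same held for 10 in SOX17+/T+ cells, where 50.3% of tested genes were called lower, and for 10 in T+ cells, where 49.5% were. Calls in either direction covered 85.4% of tested genes in SOX17+ cells (35.4% higher), 85.2% in SOX17+/T+ cells (34.9% higher) and 84% in T+ cells (34.5% higher). For all 10 genes no sorted library overlapped an mESC library, as was so for 86.1%, 86.3% and 86.1% of tested genes in the same order. Their median difference from mESC was -6.81 in SOX17+ cells, -6.37 in SOX17+/T+ cells and -6.37 in T+ cells, beside -0.18, -0.19 and -0.17 over all tested genes. Dppa2, Fbxo15 and Pou3f1 were under 1 TPM in every sorted library and passed the filter on low values only through their mESC level, so the filter fixed their direction and these counts and medians support nothing. The 3 comparisons also share the mESC libraries. With quantile normalization the all-gene median moved to 0.05, 0.06 and 0.07, and with median-of-ratios scaling to -0.05, -0.06 and -0.06. Higher genes made up 41.5%, 40.9% and 41% of calls as deposited, and 52.4%, 53.2% and 53.4% with quantile normalization. Relative to the all-gene median, the smallest difference of the 10 genes from mESC was that of Sall4, at -0.31 in SOX17+ cells, -0.54 in SOX17+/T+ cells and -0.99 in T+ cells.

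**Figure D2:**
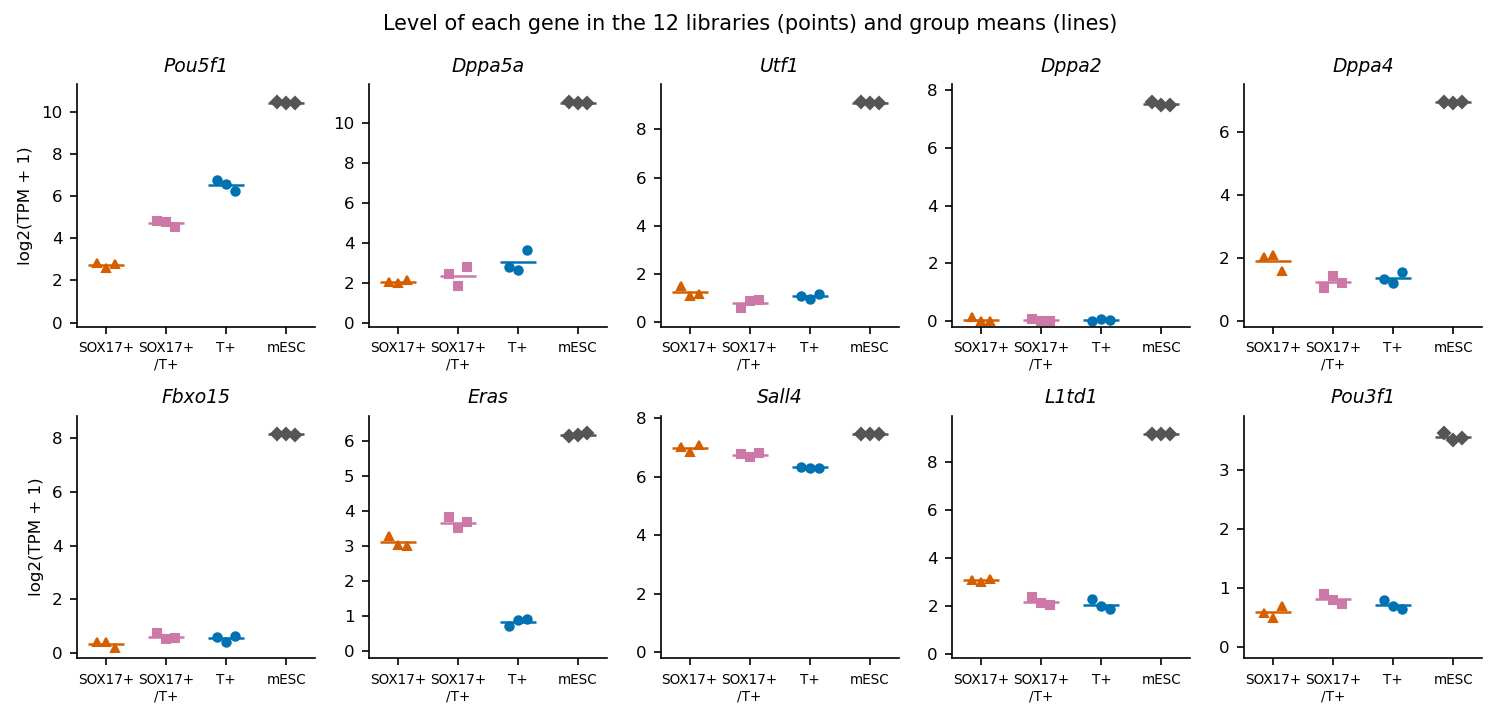
Level of each of the 10 genes as log2(TPM + 1), from 0, in the 12 libraries (points) with the group mean (lines), in SOX17+, SOX17+/T+, T+ and mESC. In every panel the mESC libraries lie above all sorted libraries. Pou5f1 is graded upward and Sall4 downward across SOX17+, SOX17+/T+ and T+ libraries.

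Pou5f1 (ENSMUSG00000024406.16, GRCm38 chr17:35506018-35510772, plus strand) had 6.03, 5.08 and 5.96 TPM in SOX17+ libraries, 26.7, 26.2 and 22.3 in SOX17+/T+ libraries, 108, 92.5 and 74.9 in T+ libraries, and 1396, 1358 and 1348 in mESC libraries. The 4 groups did not overlap, and the order was the same in any choice of 1 library from each. Counted from the most abundant gene of a library, its best rank was 10078 in SOX17+ libraries, 4927 in SOX17+/T+ libraries, 1284 in T+ libraries and 111 in mESC libraries. Pou5f1 fell in SOX17+ cells relative to SOX17+/T+ cells by 1.96 ± 0.11 (limma, adjusted p = 1.9e-07) and relative to T+ cells by 3.78 ± 0.11 (adjusted p = 1.5e-10). It fell in SOX17+/T+ cells relative to T+ cells by 1.82 ± 0.11 (adjusted p = 3.9e-07). Against mESC the differences were -7.68 ± 0.11 in SOX17+ cells, -5.72 ± 0.11 in SOX17+/T+ cells and -3.90 ± 0.11 in T+ cells (largest adjusted p = 1.3e-11). Pou5f1 was the only one of the 10 genes called lower in SOX17+/T+ than in T+ cells, except under the replicate block and without SOX17+/T+ replicate 3, which added Dppa5a, and with a pseudocount of 0.1 or without SOX17+ replicate 1, which added Utf1. Of 5 Pou5f1 pseudogenes in the table, none shared a 100-base stretch with its transcripts, and the highest, Gm5712, reached 0.132 TPM in 1 mESC library.

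The 230 bases that end 21 bases before the RefSeq transcription start are printed for Pou5f1, Eras and L1td1. These 3 genes have an entry in the RefSeq promoter table (GRCm38.p6) whose window lies upstream of the annotated gene. The table held 4 of the 10 genes, the other being Utf1, whose window overlaps its annotated gene and is not printed. A second Pou5f1 entry, chr17:35508557-35508786, inside the gene, is not printed. Each is read 5′ to 3′ on the gene's own strand, from chr17:35505782-35506011 (plus), chrX:7928628-7928857 (minus) and chr4:98726504-98726733 (plus).
Pou5f1: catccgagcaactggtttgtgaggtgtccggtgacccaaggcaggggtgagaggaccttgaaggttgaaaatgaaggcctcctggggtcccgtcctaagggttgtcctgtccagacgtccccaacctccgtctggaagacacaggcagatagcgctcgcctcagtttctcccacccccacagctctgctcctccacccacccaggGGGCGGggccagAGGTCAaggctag
Eras: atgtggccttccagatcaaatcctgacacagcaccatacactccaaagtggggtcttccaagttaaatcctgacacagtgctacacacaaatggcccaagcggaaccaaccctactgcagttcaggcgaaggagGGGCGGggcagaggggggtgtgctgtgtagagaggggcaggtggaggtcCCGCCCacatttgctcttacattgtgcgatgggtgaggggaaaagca
L1td1: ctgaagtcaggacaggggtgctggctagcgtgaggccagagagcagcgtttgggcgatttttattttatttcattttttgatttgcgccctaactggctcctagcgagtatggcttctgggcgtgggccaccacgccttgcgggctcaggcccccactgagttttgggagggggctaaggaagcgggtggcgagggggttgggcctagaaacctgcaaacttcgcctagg
Capitals mark matches to 4 motifs searched on both strands: the octamer ATGCAAAT bound by POU factors, the nuclear receptor half-site AGGTCA, the GC box GGGCGG and the SOX core ATTGTT. None of these motifs contains another. The Pou5f1 window held a GC box at -45 to -40 and a nuclear receptor half-site at -33 to -28, counted from the start site. The Eras window held a GC box at -116 to -111 and one on the other strand at -67 to -62, and the L1td1 window held no match. The second Pou5f1 window held neither a GC box nor a half-site, but a SOX core on the other strand at -159 to -154. The Utf1 window held GC boxes at -138 to -133, -133 to -128, -85 to -80 and -56 to -51, and no other match. Over 32851 windows of the same length in the table, 29.8% held a GC box, 13% the half-site, 8.98% the SOX core and 1.53% the octamer. A match is a string of letters in this window and not a measured binding site.

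Nuclear receptors that are known to act on Pou5f1 were measured beside it. Nr6a1 (GCNF), which represses Pou5f1 in mouse embryos and differentiating stem cells, had 61.9, 59 and 58.6 TPM in SOX17+ libraries, 55.2, 48.1 and 45.2 in SOX17+/T+ libraries, 43.1, 37.5 and 37.9 in T+ libraries, and 33.9, 31.2 and 29.6 in mESC libraries. Its groups did not overlap, and their order was the reverse of that of Pou5f1. Whether Nr6a1 had a part in the Pou5f1 levels was not tested, and the genes that share this order were not counted. Nr6a1 rose in SOX17+ cells relative to T+ cells by 0.59 ± 0.07 (limma, adjusted p = 2.0e-05). Nr5a2 (LRH-1), an activator of Pou5f1, averaged 0.73 ± 0.167 TPM in SOX17+ cells, 0.254 ± 0.0702 in SOX17+/T+ cells, 0.267 ± 0.0233 in T+ cells and 44.2 ± 1.1 in mESC. Nr2f2 (COUP-TFII), a repressor, averaged 2.32 ± 0.537, 1.45 ± 0.298, 1.68 ± 0.234 and 4.71 ± 0.564 TPM in the same order, and Nr2f1 was too low to be tested. Cdx2, the caudal homeobox factor that opposes Pou5f1 in the trophectoderm, averaged 33.9 ± 5.07 TPM in SOX17+ cells, 28.5 ± 2.76 in SOX17+/T+ cells, 48.3 ± 9.82 in T+ cells and 0.592 ± 0.114 in mESC. With Ehmt2, the histone methyltransferase G9a, these were 6 genes, of which 5 were tested. In each comparison with mESC 2 were called higher and 3 lower, of which Nr5a2 passed the filter only through mESC. Among tested genes 34.5% to 35.4% were called higher and 49.5% to 50.3% lower in these comparisons. Ehmt2 was no longer called against mESC in SOX17+/T+ or T+ cells with quantile normalization (limma, adjusted p = 0.11 and 0.68).

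The genes most like Pou5f1 were found by Pearson correlation of log2(TPM + 1), as a description over libraries that share their groups. Over all 12 libraries they were Msantd3 (0.998), Prdm14 (0.997), Prps1 (0.997), Bub1b (0.996) and Gng3 (0.996). Prdm14, a PR-domain factor of embryonic stem cells and germ cells, averaged 0.0369 TPM in SOX17+ cells, 0.86 in SOX17+/T+ cells, 2.69 in T+ cells and 14.5 in mESC, so its order of groups was that of Pou5f1. Over the 9 sorted libraries alone they were Mesp2 (0.999), Dgkg (0.999), Tmem185a (0.998), Sparcl1 (0.997) and Fut10 (0.997). Mesp2, a bHLH factor of presomitic mesoderm, averaged 0.0962 TPM in SOX17+ cells, 1.82 in SOX17+/T+ cells and 6 in T+ cells, against 2.34 in mESC. Among the 10 genes themselves the correlation with Pou5f1 over the 9 sorted libraries ran from -0.95 for Sall4 to 0.697 for Dppa5a, although over all 12 libraries it was positive for each of the 9, between 0.457 for Sall4 and 0.914 for Dppa5a.

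Pou3f1 (OCT6, ENSMUSG00000090125.3, chr4:124656807-124660655, plus strand), a POU factor of the later epiblast and of neural and Schwann cells, was the lowest of the 10 genes in mESC. It had 0.483, 0.397 and 0.622 TPM in SOX17+ libraries, 0.869, 0.736 and 0.657 in SOX17+/T+ libraries, 0.722, 0.604 and 0.55 in T+ libraries, and 11.4, 10.4 and 10.7 in mESC libraries. The sorted groups lay close together, and only SOX17+ and SOX17+/T+ libraries did not overlap. The difference between those groups was -0.23 ± 0.08 (limma, adjusted p = 0.046). That call was lost without T+ replicate 2 or 3, SOX17+/T+ replicate 1 or 2, SOX17+ replicate 1 or 2, or mESC replicate 2 or 3, with adjusted p between 0.053 and 0.16, and also with quantile normalization (0.1), with no filter (0.071) and in a fit of the compared groups alone (0.076). Over the 9 sorted libraries the gene most like Pou3f1 was Phtf2 (Pearson r = 0.948), and over 12 libraries it was Zfp936 (0.999). The primed epiblast genes with which Pou3f1 is often grouped moved in both directions. Of 11, 2 were called higher and 7 lower than mESC in SOX17+, 2 and 7 in SOX17+/T+, and 1 and 6 in T+ cells. Among tested genes 34.5% to 35.4% were called higher and 49.5% to 50.3% lower in these comparisons. Foxd3 passed the filter only through mESC. Dnmt3b, a DNA methyltransferase of the epiblast, averaged 158 ± 17 TPM in SOX17+ cells, 115 ± 13 in SOX17+/T+ cells and 67.3 ± 2.31 in T+ cells, against 156 ± 3.79 in mESC. Lef1, a WNT effector, averaged 18.4 ± 1.65, 36 ± 1.02 and 78.9 ± 5.6 TPM, against 8.71 ± 0.855 in mESC.

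Of 13 other POU genes 5 passed the filter. In each sorted group 4 of them were called lower than mESC, where 49.5% to 50.3% of tested genes were. Of those 4, Pou2f3, Pou4f1 and Pou4f2 were under 1 TPM in all sorted libraries and passed only through mESC, which leaves Pou6f1 as the one whose direction the filter did not fix. The exception, Pou2f1 (OCT1), which is broadly expressed, averaged 14.4 ± 1.36 TPM in SOX17+ cells, 16.2 ± 0.547 in SOX17+/T+ cells, 17.9 ± 1.99 in T+ cells and 15.7 ± 0.781 in mESC. In SOX17+ cells Pou2f1 was thus above Pou5f1, and in T+ cells below it, on the TPM scale that allows genes to be compared per length. Pou6f1 averaged 0.225 ± 0.0417 TPM in SOX17+ cells, 0.808 ± 0.633 in SOX17+/T+ cells, 1.69 ± 0.339 in T+ cells and 3.85 ± 0.314 in mESC, and it was lower in SOX17+ than in T+ cells by -1.13 ± 0.18 on the log2 scale (limma, adjusted p = 1.8e-04). The SOX17+/T+ libraries of Pou6f1 were uneven, at 0.464, 0.42 and 1.54 TPM.

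Sall4 (ENSMUSG00000027547.17, chr2:168748332-168767943, minus strand), which supports Pou5f1 expression in stem cells and is also used in limb and germ cells, had 130, 115 and 134 TPM in SOX17+ libraries, 108, 101 and 111 in SOX17+/T+ libraries, 79.6, 79 and 78.9 in T+ libraries, and 178, 177 and 178 in mESC libraries. The 4 groups did not overlap, and the T+ libraries were the lowest, where Pou5f1 was the highest of the sorted groups. Sall4 rose in SOX17+ cells relative to SOX17+/T+ cells by 0.24 ± 0.05 (limma, adjusted p = 0.0023) and relative to T+ cells by 0.66 ± 0.05 (adjusted p = 1.4e-07). It rose in SOX17+/T+ cells relative to T+ cells by 0.42 ± 0.05 (adjusted p = 3.7e-05). The ratio of Sall4 to Pou5f1, both in TPM, was 22.2 ± 0.546 in SOX17+ cells, 4.29 ± 0.595 in SOX17+/T+ cells, 0.88 ± 0.162 in T+ cells and 0.13 ± 0.00224 in mESC (SD, n = 3). Of the other spalt genes, Sall1 and Sall2 showed no called difference between sorted groups, and Sall3 did. Sall1 averaged 28.1 ± 3.45 TPM in SOX17+ cells, 30.8 ± 2.53 in SOX17+/T+ cells, 31.2 ± 2 in T+ cells and 71.1 ± 3.63 in mESC. Sall2 was higher than mESC in each sorted group, at 16.8 ± 1.67, 17.7 ± 0.523 and 18.4 ± 0.22 TPM against 7.46 ± 0.347 TPM. Sall3 ran opposite to Sall4, with 5.45 ± 0.463 TPM in SOX17+ cells and 9.58 ± 0.331 in SOX17+/T+ cells against 18.1 ± 0.846 in T+ cells, and it was lower in SOX17+ than in T+ cells by -1.57 ± 0.07 (limma, adjusted p = 4.5e-10).

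Eras (ENSMUSG00000031160.4, chrX:7924276-7928607, minus strand), whose protein signals through PI3K without a growth factor in mouse embryonic stem cells, had 8.75, 7.25 and 7.06 TPM in SOX17+ libraries, 13.2, 10.4 and 11.9 in SOX17+/T+ libraries, 0.656, 0.867 and 0.889 in T+ libraries, and 70.7, 71.1 and 73.8 in mESC libraries. No groups overlapped, and the SOX17+/T+ libraries were the highest of the sorted ones. Eras fell in SOX17+ cells relative to SOX17+/T+ cells by 0.56 ± 0.09 (limma, adjusted p = 3.8e-04). It rose in SOX17+ cells relative to T+ cells by 2.26 ± 0.09 (adjusted p = 3.6e-10) and in SOX17+/T+ cells relative to T+ cells by 2.82 ± 0.09 (adjusted p = 4.6e-10). The gene just upstream of Eras on the same strand is Hdac6, a cytoplasmic deacetylase, 1512 bases away. Hdac6 had 66.9, 56.1 and 62.2 TPM in SOX17+ libraries, 63.7, 60.2 and 74.8 in SOX17+/T+ libraries, 28.3, 28.7 and 32.7 in T+ libraries, and 38, 35.3 and 38.3 in mESC libraries. Hdac6 was thus also higher in SOX17+ cells than in T+ cells, by 1.02 (adjusted p = 3.6e-07), and in SOX17+/T+ cells than in T+ cells, by 1.12 (adjusted p = 7.5e-07). Eras amounted to 11.3% to 13.1% of Hdac6 TPM in SOX17+ libraries, 15.9% to 20.7% in SOX17+/T+ libraries, 2.32% to 3.02% in T+ libraries and 186% to 201% in mESC libraries, so the ratio to its neighbour differed between SOX17+/T+ and T+ libraries without overlap. Whether reads that run on from Hdac6 contribute to Eras was not tested.

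The RAS genes related to Eras were read beside it. Among 5 examined, 4 were called higher in SOX17+ than in T+ cells and none lower, where 25.4% of tested genes were higher and 29% lower. Mras averaged 5.09 ± 0.3 TPM in SOX17+ cells, 2.31 ± 0.241 in SOX17+/T+ cells, 1.14 ± 0.176 in T+ cells and 61.4 ± 4.18 in mESC, and its differences from mESC were -3.35 in SOX17+ cells, -4.24 in SOX17+/T+ cells and -4.87 in T+ cells (limma, largest adjusted p = 3.3e-13), beside -3.07, -2.51 and -5.34 for Eras. Hras averaged 55.3 ± 5.79 TPM in SOX17+ cells, 39.2 ± 0.951 in SOX17+/T+ cells, 28.2 ± 1.77 in T+ cells and 77.6 ± 1.6 in mESC. Rras, by contrast, averaged 91.2 ± 7.3, 74.9 ± 5.18 and 71.5 ± 5.9 TPM in the sorted groups against 36.2 ± 1.59 TPM in mESC. Nras lay between 60.4 and 80.9 TPM in every library.

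**Figure D3:**
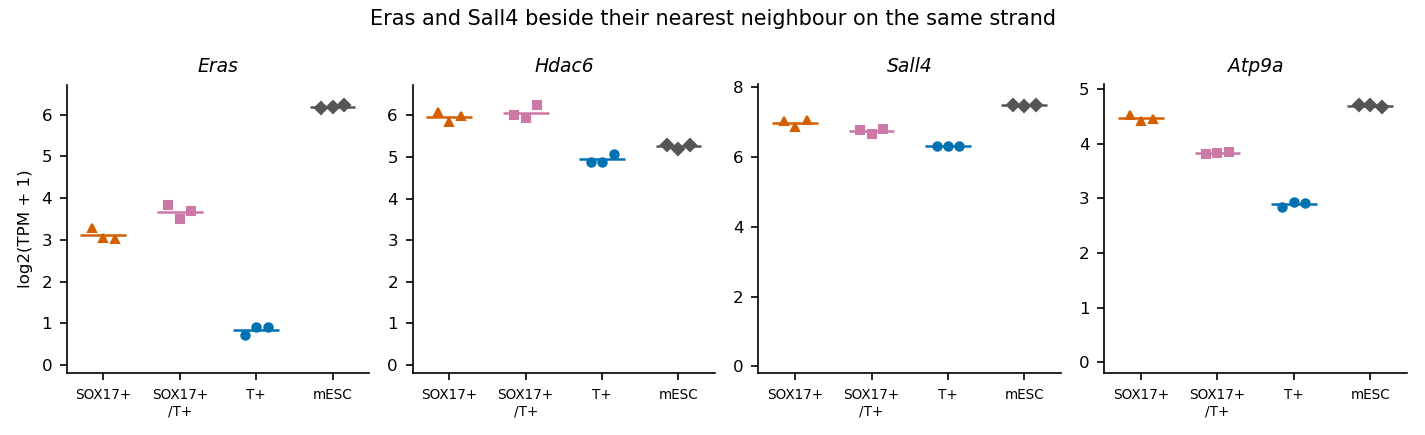
Level of Eras and Sall4 as log2(TPM + 1), each beside its nearest neighbour on the same strand, Hdac6 and Atp9a, in SOX17+, SOX17+/T+, T+ and mESC libraries (points) with group means (lines). Hdac6 and Eras are both lowest in T+ libraries, but only Eras is highest in mESC. Atp9a is graded across the sorted groups as Sall4 is.

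Genes beside the 10 were also looked at as a whole. The nearest protein-coding gene on each side gave 18 that are not among the 10, of which 11 were tested. Of these, 8 were called lower and 2 higher than mESC in SOX17+, 9 and 2 in SOX17+/T+, and 9 and 1 in T+ cells. Among tested genes 50% were lower and 35.4% higher in SOX17+, 50.3% and 34.9% in SOX17+/T+, and 49.5% and 34.5% in T+ cells. Ooep, Kndc1 and Kank4 were under 1 TPM in every sorted library and passed the filter only through mESC, which fixed their direction. Atp9a, a flippase gene 5922 bases from Sall4 on the same strand, averaged 21.1 ± 0.844 TPM in SOX17+ cells, 13.2 ± 0.2 in SOX17+/T+ cells, 6.46 ± 0.249 in T+ cells and 24.8 ± 0.335 in mESC. It rose in SOX17+ relative to T+ cells by 1.57 (limma, adjusted p = 3.5e-11), which is more than Sall4 did. Ooep, an oocyte gene 7931 bases from Dppa5a, averaged 0.0418 TPM in SOX17+ cells, 0.0272 in SOX17+/T+ cells and 0.0861 in T+ cells, against 44.9 in mESC. Patj, a polarity gene beside L1td1, went the other way, at 24.8 ± 1.82 TPM in SOX17+ cells, 19.7 ± 0.969 in SOX17+/T+ cells and 14.8 ± 0.176 in T+ cells, against 3.36 ± 0.595 in mESC. Tcf19, the neighbour of Pou5f1 at 1961 bases, lay between 4.89 and 7.58 TPM in every library. Like Pou5f1 it was called lower in SOX17+ than in T+ cells (-0.24, limma, adjusted p = 0.038) and in SOX17+/T+ than in T+ cells (-0.30, adjusted p = 0.022), and lower in SOX17+/T+ cells than in mESC (-0.26, adjusted p = 0.014).

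Utf1 (ENSMUSG00000047751.9, chr7:139943789-139945112, plus strand), a chromatin-associated cofactor and a classical target of OCT4 with SOX2, had 1.82, 1.13 and 1.26 TPM in SOX17+ libraries, 0.491, 0.853 and 0.866 in SOX17+/T+ libraries, 1.12, 0.964 and 1.24 in T+ libraries, and 561, 543 and 550 in mESC libraries. The sorted libraries lay near 1 TPM throughout, and T+ libraries, with the most Pou5f1 of the sorted groups, had a lower mean of Utf1 than SOX17+ libraries, which they overlapped. Utf1 rose in SOX17+ cells relative to SOX17+/T+ cells by 0.47 ± 0.11 (limma, adjusted p = 0.0047). Between SOX17+/T+ and T+ cells the difference was -0.28 ± 0.11 (adjusted p = 0.07), and it was called without SOX17+ replicate 1 (adjusted p = 0.03) and with a pseudocount of 0.1 (-0.56, adjusted p = 0.05).

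Dppa2 (ENSMUSG00000072419.5, chr16:48303908-48319723) and Dppa4 (ENSMUSG00000058550.15, chr16:48283733-48294237) lie 9670 bases apart on the plus strand and encode SAP-domain chromatin proteins that bind each other. Dppa2 had 0.0923, 0 and 0 TPM in SOX17+ libraries, 0.0454, 0 and 0 in SOX17+/T+ libraries, 0, 0.0549 and 0.0223 in T+ libraries, and 193, 180 and 179 in mESC libraries. Dppa4 had 3.05, 3.28 and 1.95 TPM in SOX17+ libraries, 1.07, 1.68 and 1.31 in SOX17+/T+ libraries, 1.51, 1.31 and 1.92 in T+ libraries, and 123, 120 and 122 in mESC libraries. The partners thus parted: Dppa2 exceeded Dppa4 in every mESC library and was lower than Dppa4 in every sorted library. Dppa4 rose in SOX17+ cells relative to SOX17+/T+ cells by 0.67 ± 0.14 (limma, adjusted p = 0.0019) and relative to T+ cells by 0.53 ± 0.14 (adjusted p = 0.0051), although its lowest SOX17+ library, at 1.95 TPM, was close to the highest T+ library, at 1.92 TPM. Two-cell-like genes, which this pair is known to activate through Dux in mouse stem cells, summed to 57.3 to 65.3 TPM in mESC. Their sum was 0 in every SOX17+ library and reached at most 0.149 TPM in SOX17+/T+ libraries and 0.151 TPM in T+ libraries.

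The 2 RNA-binding genes of the set separated from each other. Dppa5a (ENSMUSG00000060461.5, chr9:78367052-78368177, minus strand), which encodes a KH-domain protein, was the highest of the 10 genes in mESC, with 2146, 2114 and 2097 TPM there. It had 3.12, 3.01 and 3.4 TPM in SOX17+ libraries, 4.43, 2.58 and 5.87 in SOX17+/T+ libraries, and 5.92, 5.32 and 11.6 in T+ libraries. T+ replicate 3 stood well above the other T+ libraries, and SOX17+/T+ replicate 3 was likewise the highest of its group. Dppa5a fell in SOX17+ cells relative to T+ cells by 0.97 ± 0.27 (limma, adjusted p = 0.012). In SOX17+/T+ cells relative to T+ cells the difference was -0.68 ± 0.27 (adjusted p = 0.092), and with the replicate number as a block it was called (-0.68, adjusted p = 0.041), as it was without SOX17+/T+ replicate 3 (-0.89, adjusted p = 0.041). The near copies Dppa5b and Dppa5c averaged 18.2 and 18.1 TPM in mESC and were at 0 in every sorted library. Each shares 5 of the 520 stretches of 100 bases in Dppa5a transcripts, or 0.962%. How reads of these copies were assigned was not tested.

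L1td1 (ENSMUSG00000087166.9, chr4:98726734-98738480, plus strand), derived from a LINE-1 open reading frame and known in human stem cells as a partner of LIN28, had 7.32, 6.98 and 7.68 TPM in SOX17+ libraries, 4.1, 3.33 and 3.07 in SOX17+/T+ libraries, 3.8, 2.94 and 2.58 in T+ libraries, and 581, 582 and 575 in mESC libraries. SOX17+ libraries lay above all other sorted libraries, while SOX17+/T+ and T+ libraries overlapped. L1td1 rose in SOX17+ cells relative to SOX17+/T+ cells by 0.89 ± 0.10 (limma, adjusted p = 1.6e-05) and relative to T+ cells by 1.03 ± 0.10 (adjusted p = 1.6e-06). Lin28a, the let-7 inhibitor, averaged 509 ± 27.1 TPM in SOX17+ cells, 363 ± 33.6 in SOX17+/T+ cells, 227 ± 17.8 in T+ cells and 260 ± 7.05 in mESC. Of the 5 LIN28 and IGF2BP genes, 4 were called higher than mESC in SOX17+ and in SOX17+/T+ cells and 3 in T+ cells. Among tested genes 35.4%, 34.9% and 34.5% were called higher in these groups. The call of Lin28a in T+ cells relative to mESC turned with the scaling: -0.20 as deposited (limma, adjusted p = 0.019), -0.07 after median-of-ratios scaling, and 0.17 when quantile-normalized.

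Fbxo15 (ENSMUSG00000034391.11, chr18:84934782-84981472, plus strand), an F-box protein whose locus served as an early reporter of reprogramming and which stem cells do not need, had 0.319, 0.326 and 0.145 TPM in SOX17+ libraries, 0.655, 0.437 and 0.47 in SOX17+/T+ libraries, 0.516, 0.336 and 0.553 in T+ libraries, and 289, 288 and 278 in mESC libraries. Every sorted library was under 1 TPM, and SOX17+ libraries were the lowest. The difference between SOX17+ and SOX17+/T+ cells was -0.27 ± 0.09 (limma, adjusted p = 0.027), and between SOX17+ and T+ cells -0.22 ± 0.09 (adjusted p = 0.049). The first was lost without SOX17+/T+ replicate 1 or SOX17+ replicate 3 (adjusted p = 0.11 each), and with quantile normalization, no filter or the compared groups alone (adjusted p of 0.073, 0.053 and 0.052). The second was lost without T+ replicate 1 or 3, SOX17+/T+ replicate 2 or 3, SOX17+ replicate 3 or any 1 mESC library (adjusted p between 0.05 and 0.19), and under the same alternative settings (0.061, 0.084 and 0.07). The SCF ligase core into which F-box proteins fit stayed on: Skp1a, Cul1 and Rbx1 together summed to 558 to 571 TPM in SOX17+ libraries, 529 to 551 in SOX17+/T+ libraries, 531 to 534 in T+ libraries and 697 to 737 in mESC libraries. All 3 were called lower than mESC in each sorted group, where 49.5% to 50.3% of tested genes were. That direction turned for Rbx1 in SOX17+ and SOX17+/T+ cells with quantile normalization (0.08 and 0.06).

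Between the sorted groups the 10 genes did not move as 1 block. In SOX17+ relative to T+ cells, 4 were called higher (Eras, L1td1, Sall4 and Dppa4), 3 lower (Pou5f1, Dppa5a and Fbxo15) and 3 were not called, where 54.5% of tested genes passed, 25.4% upward and 29% downward. In SOX17+ relative to SOX17+/T+ cells, 4 were higher (L1td1, Dppa4, Utf1 and Sall4), 4 lower (Pou5f1, Eras, Fbxo15 and Pou3f1) and 2 not called, where 36.6% passed, 19.8% upward and 16.8% downward. In SOX17+/T+ relative to T+ cells, 2 were higher (Eras and Sall4), 1 lower (Pou5f1) and 7 not called, where 28.4% passed, 12.6% upward and 15.8% downward. The medians of the 10 differences were 0.09, -0.10 and 0.02 in these comparisons, beside -0.03, 0.00 and -0.03 over all tested genes. The 3 calls of 10 in the last comparison are near the background. Groups did not overlap for 60.5%, 44.8% and 42.5% of tested genes in these comparisons. These comparisons share groups, so they are not independent of each other.

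**Figure D4:**
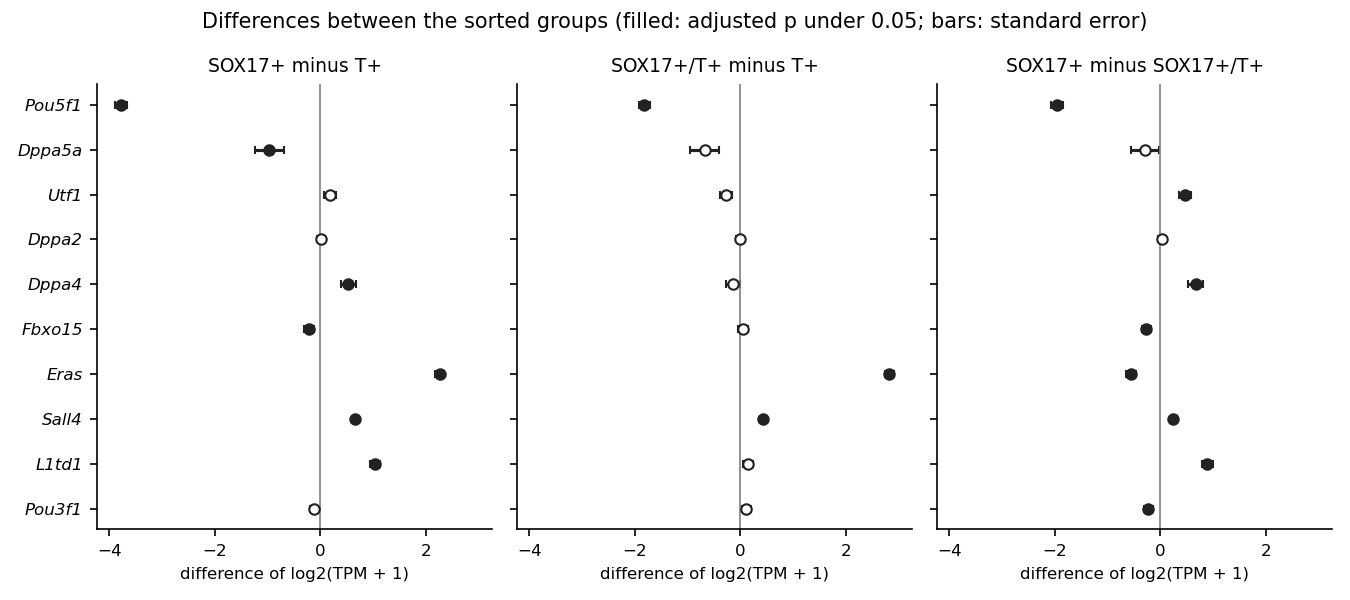
Difference of log2(TPM + 1) for each of the 10 genes between the sorted groups, as SOX17+ minus T+, SOX17+/T+ minus T+ and SOX17+ minus SOX17+/T+, with bars for the standard error. Filled points have an adjusted p under 0.05. Pou5f1 lies farthest to the left in every panel, and Eras lies farthest to the right in both panels with T+.

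The pattern was set beside that of the core pluripotency network. Its 12 genes outside the set were called lower than mESC in every sorted group, where 50%, 50.3% and 49.5% of tested genes were in SOX17+, SOX17+/T+ and T+ cells. Klf2 and Nr0b1 were under 1 TPM in all 9 sorted libraries, and Fgf4 reached 1 TPM there only in T+ replicates 1 and 2. These genes thus passed the filter only through mESC, which fixed their direction. The 12 genes summed to 74.9 to 86.4 TPM in SOX17+ libraries, 65.2 to 77.2 in SOX17+/T+ libraries and 71 to 74.5 in T+ libraries. In mESC libraries their sum was 2727 to 2741 TPM. In SOX17+ relative to T+ cells 2 of the 12 were called higher and 6 lower, where 25.4% and 29% of tested genes were. Sox2, the partner of OCT4, averaged 0.975 ± 0.443 TPM in SOX17+ cells, 1.33 ± 0.122 in SOX17+/T+ cells, 4.33 ± 0.453 in T+ cells and 351 ± 9.15 in mESC, and fell in SOX17+ relative to T+ cells by 1.45 ± 0.13 (limma, adjusted p = 6.0e-07). Nanog, a homeobox factor of the naive state, had 4.82, 2.99 and 5.69 TPM in SOX17+ libraries, 13.2, 8.87 and 16.2 in SOX17+/T+ libraries, 13.2, 11.3 and 15.3 in T+ libraries, and 451, 451 and 418 in mESC libraries. It fell in SOX17+ relative to SOX17+/T+ cells by 1.32 ± 0.22 (adjusted p = 9.6e-04), but SOX17+/T+ and T+ libraries overlapped (-0.08 ± 0.22, adjusted p = 0.84), where those of Pou5f1 did not. Tfcp2l1, a grainyhead-like factor, rose in SOX17+ relative to T+ cells by 1.54 ± 0.07 (adjusted p = 6.5e-10), at 4.05 ± 0.193 TPM against 0.741 ± 0.0547 TPM. Tbx3, a T-box factor also used in endoderm, averaged 57.9 ± 3.44 TPM in SOX17+ cells, 36.2 ± 1.78 in SOX17+/T+ cells, 32.6 ± 1.51 in T+ cells and 77.7 ± 3.75 in mESC, so like Sall4 it stayed within the same order of magnitude as in mESC.

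**Figure D5:**
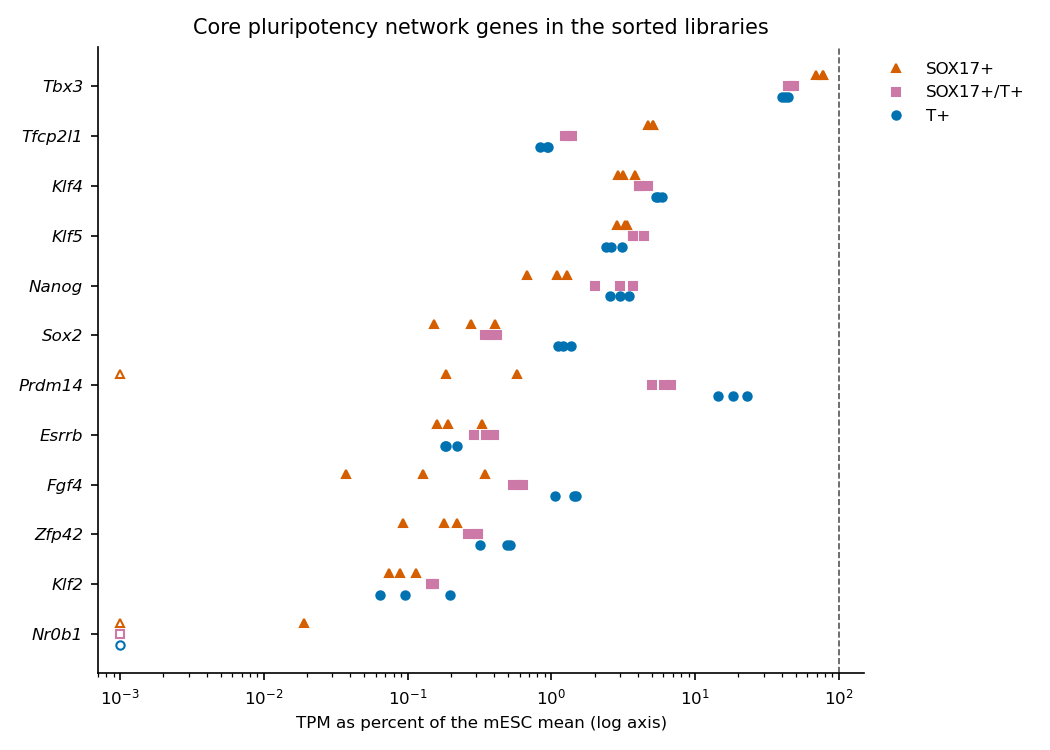
TPM of 12 core pluripotency network genes in each sorted library as a percent of the mESC mean, on a log axis. Symbols are SOX17+ (triangles), SOX17+/T+ (squares) and T+ (circles) libraries. An open symbol at the left edge stands for all libraries of its group listed at 0 for that gene. The dashed line is the mESC mean. Tbx3 lies nearest to it, and Sox2, Prdm14 and Fgf4 are among the genes that lie farthest right in T+ libraries.

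Markers of other cell types that use some of the 10 genes were read in the same libraries. Primordial germ cells keep Pou5f1 and Sall4, and of 8 germ cell genes 2 were called higher and 6 lower in SOX17+ cells than in mESC, where 35.4% of tested genes were higher and 50% lower. Dppa3, Nanos3 and Dazl were under 1 TPM in all sorted libraries, so the filter fixed 3 of the 6. Prdm1 (BLIMP1), also an endoderm gene, averaged 18.8 ± 1.68 TPM in SOX17+ cells, 12.1 ± 2.01 in SOX17+/T+ cells, 4.08 ± 0.0928 in T+ cells and 7.76 ± 0.198 in mESC. The defining germ cell gene Dppa3 was listed at 0 in all 9 sorted libraries, and Nanos3 at 0 in every SOX17+ library. The 8 genes summed to 65 to 73.6 TPM in SOX17+ libraries, 48.3 to 53.6 in SOX17+/T+ libraries, 35.9 to 37.8 in T+ libraries and 127 to 134 in mESC libraries. The 7 neural genes, of interest for Pou3f1, summed to 2.95 to 3.98 TPM in SOX17+ libraries and 2.98 to 3.86 in SOX17+/T+ libraries. Their sum was 6.43 to 7.43 TPM in T+ libraries and 130 to 135 in mESC libraries. Most of the mESC sum was Tubb3 (93.2 ± 3.01 TPM) and Nes (24.3 ± 2.56), while Pax6 averaged 6.64 ± 0.279 and Sox1 3.42 ± 0.409. The 5 primitive blood genes summed to 88.6 to 221 TPM in SOX17+ libraries, 10.2 to 17.9 in SOX17+/T+ libraries, 2.03 to 3.29 in T+ libraries and 1.23 to 1.39 in mESC libraries. The 5 endothelial genes summed to 54.1 to 65.9, 36.3 to 38, 29.7 to 33.4 and 35.4 to 36 TPM in the same order. The 7 definitive endoderm genes, Sox17 included, summed to 705 to 773, 475 to 519, 238 to 271 and 92.2 to 99.6 TPM in the same order. In SOX17+ relative to T+ cells 5 of these 7 were called higher and 1 lower. Of the 5 endothelial genes, 4 were higher there and Kdr was lower (-0.57, limma, adjusted p = 1.5e-04). Among tested genes 25.4% were higher and 29% lower. The blood, endothelial and endoderm sums were thus higher in SOX17+ than in T+ libraries, as Sall4, L1td1 and Dppa4 were. These sums were also higher in SOX17+/T+ than in T+ libraries, where Sall4 rose (0.42, limma, adjusted p = 3.7e-05). L1td1 (0.14, adjusted p = 0.35) and Dppa4 (-0.14, adjusted p = 0.51) were not called there. The part of blood, endothelial and endoderm RNA in the rise of these genes in SOX17+ cells was not tested.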

How the data were processed

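Poly(A) RNA was measured in 12 libraries, 3 per group, from 500 ng of total RNA in a stranded preparation with 100-base paired reads, per the labels' protocols. Tools listed, per the submitters' processing notes, are cutadapt, STAR and StringTie, with mm10 and GRCm38 as builds. Versions, annotation release, filters and whether strand was used in quantification were not given in those notes. A single TPM table deposited by the authors supplied all values. The labels state only a minimum depth for the run, and no counts were analysed, so the depth behind a value is unknown, no interval for counting error is given, and the number of libraries limits the precision. A value of exactly 0 may be a failed estimate: between 10 and 14 genes per group had a 0 beside a replicate of at least 5 TPM.

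From these values, 282 empty cells were set to 0 and rows were summed per gene identifier (11 genes were split), which left 54446 genes. Values were used as log2(TPM + 1). Genes with 1 TPM or more in at least 3 libraries (16097) entered 1 fit of the 12 libraries in limma (version 3.58.1, under R 4.3.3; trend and robust, 8 residual degrees of freedom), 2-sided, adjusted by Benjamini-Hochberg over all tested genes, with calls under 0.05. The fit was tested on simulated data. Group means, residual percentages and likeness were computed in Python 3.11.15. Gene models, neighbours and shared 100-base stretches come from GENCODE M21 (GRCm38), and promoter windows from RefSeq (GRCm38.p6). The rule on neighbours was added after the table was opened.

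The 10 genes, the 16 further lists (115 genes) and the tests were chosen with earlier results of these data known. Open to naming were the 10 genes, T and Sox17, the 5 genes most like Pou5f1 or Pou3f1 (leaving out predicted and RIKEN symbols), up to 4 called genes per list with the largest change, lists of 6 or fewer genes, and for other cell types the highest members. Not every gene that this rule allows is named, and the choice among them was made with their values known. Dnmt3b, Nanos3, Gm5712, Dppa5b, Dppa5c, the neighbouring genes and some genes named because of the filter fall outside this rule. They were chosen after their values were seen. A gene that the lists first held is not reported here.

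Replicates with the same number deviated together between SOX17+/T+ and T+ libraries (r of 0.204, 0.149 and 0.242, against at most 0.008 for other numbers). These numbers may thus pair the samples of that comparison. Between SOX17+/T+ and SOX17+ libraries r was 0.046, 0.178 and 0.224, against at most 0.085 for other numbers. The reported fit held group only and did not use the pairing, which entered only as the replicate block among the alternatives. Alternatives were pseudocounts of 0.1 and 0.01, other filters, median-of-ratios scaling and quantile normalization. Others were rescaling without the 12 feeder genes and mitochondrial genes, limma without trend and robust, and fits of only the groups compared. The replicate block and leaving out each library were also used.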

Additional observations from a re-analysis of the deposited data

How the results depend on the processing

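Over the alternatives and the fits with 1 library left out, the number of the 10 genes called stayed at 10 against mESC in every sorted group, and at 6 to 7 in SOX17+ relative to T+ cells, 3 to 4 in SOX17+/T+ relative to T+ cells and 6 to 8 in SOX17+ relative to SOX17+/T+ cells. Directions turned for Fbxo15 in SOX17+/T+ relative to T+ cells, which was not called (0.05), at -0.02 without T+ replicate 2 and -0.01 without SOX17+/T+ replicate 1, in a range up to 0.09 over the fits that left out 1 library. With quantile normalization they turned for Nras in T+ relative to mESC (0.01), Rbx1 in SOX17+ (0.08) and SOX17+/T+ cells (0.06) relative to mESC, Skp1a in SOX17+ relative to T+ cells (-0.03) and Lin28a in T+ relative to mESC (0.17). The cause was not tested. With the replicate block, 4 genes were called in SOX17+/T+ relative to T+ cells in place of 3, through Dppa5a, and in the other comparisons of the 10 genes the block changed no call. Of the 60 residual levels recomputed under another scaling, 8 moved by more than 1 SD between replicates. With median-of-ratios scaling they were Sall4 at 78.9%, 67% and 48.7% of mESC in SOX17+, SOX17+/T+ and T+ cells, Pou5f1 at 0.462% in SOX17+ and 2.05% in SOX17+/T+ cells, and in SOX17+ cells Dppa5a at 0.166% (0.15% as deposited) and L1td1 at 1.41% (1.27% as deposited). Without the 12 feeder genes and mitochondrial genes, Sall4 in T+ cells was at 45.5%. The precision of values near 0 TPM cannot be stated without counts.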
